A study of Homo sapiens with 6 samples.

Results

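Transcript levels of 10 cell surface receptors, EGFR, ERBB2, ERBB3, AXL, MET, PDGFRA, PDGFRB, NGFR, IGF1R and FGFR1, were examined in A375SM melanoma cells that carried a hairpin against PRAME or a control hairpin. They were listed by symbol as receptors linked to drug resistance in melanoma and matched to the NCBI gene identifiers of the count files, where all 10 were found among 40895 identifiers. All are receptor tyrosine kinases except NGFR, the neurotrophin receptor of the tumour necrosis factor receptor superfamily, which has a death domain and no kinase domain. A375SM is a metastatic derivative of A375, a human melanoma line with a BRAF mutation. One group of 3 libraries came from cells given a control short hairpin RNA (shCtrl) and the other group of 3 from cells given a hairpin against PRAME mRNA (shPRAME), with the genotype labelled WT and the same batch label throughout, and polyA RNA was sequenced. The number of hairpins, and whether the libraries of a group came from separate transductions or from 1 transduced culture, are not stated in the labels. P-values therefore speak only of how far these libraries vary, and that variation may be technical.

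Libraries held 30842788 to 34107332 counts. PRAME, the targeted gene, stood at 34.2% of its control level in shPRAME (1803 to 1993 counts a library, where shCtrl had 5083 to 5623). Of the markers of the melanocyte lineage, SOX10 stood at 265.6 ± 7.95 CPM in shCtrl and 275.3 ± 1.48 in shPRAME and S100B at 54.0 ± 0.629 and 28.2 ± 1.26 (CPM, counts as a rate of the library total, scaled by TMM; mean ± SD, n = 3 each), while TYR had no count and MLANA 1 count over the 6 libraries. Defining pigment genes were thus at or near 0 in both groups.

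Receptor tyrosine kinases bind a ligand outside the cell, pair up, and phosphorylate each other and their adaptors, which feeds the RAS-MAPK and PI3K-AKT pathways. In BRAF-mutant melanoma, raised activity of such receptors can restart these pathways while the mutant kinase is blocked by a drug. High AXL, EGFR, PDGFRB and NGFR are known from melanoma cells of a dedifferentiated or neural crest-like state, whereas ERBB3 is a receptor of the neural crest and melanocyte lineage.

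All 10 receptors differed between the groups, in both directions, in a comparison where 74.4% of all tested genes passed. ERBB3, MET, EGFR, PDGFRA, FGFR1 and IGF1R were higher in shPRAME, and ERBB2, AXL, PDGFRB and NGFR were lower (edgeR quasi-likelihood test, adjusted p under 0.05 over all tested genes). Those 6 higher and 4 lower calls stand against 37.7% of all 15954 tested genes called higher and 36.8% called lower, so a call alone does not set a receptor apart. In bulk RNA of this kind, fewer cells with a transcript and less of it per cell cannot be told apart. PDGFRA and FGFR1 were at least 2-fold higher, where 10.1% of all genes were, and PDGFRB and NGFR at least 2-fold lower, where 8.43% were. The median size of the log2 fold change, sign ignored, was 0.91 over the receptors and 0.38 over all tested genes. In none of the 10 did the libraries of the groups overlap, as in 76.5% of all tested genes. All 10 had at least 114 counts in every library and passed the filter on low counts in both groups.

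**Figure D1:**
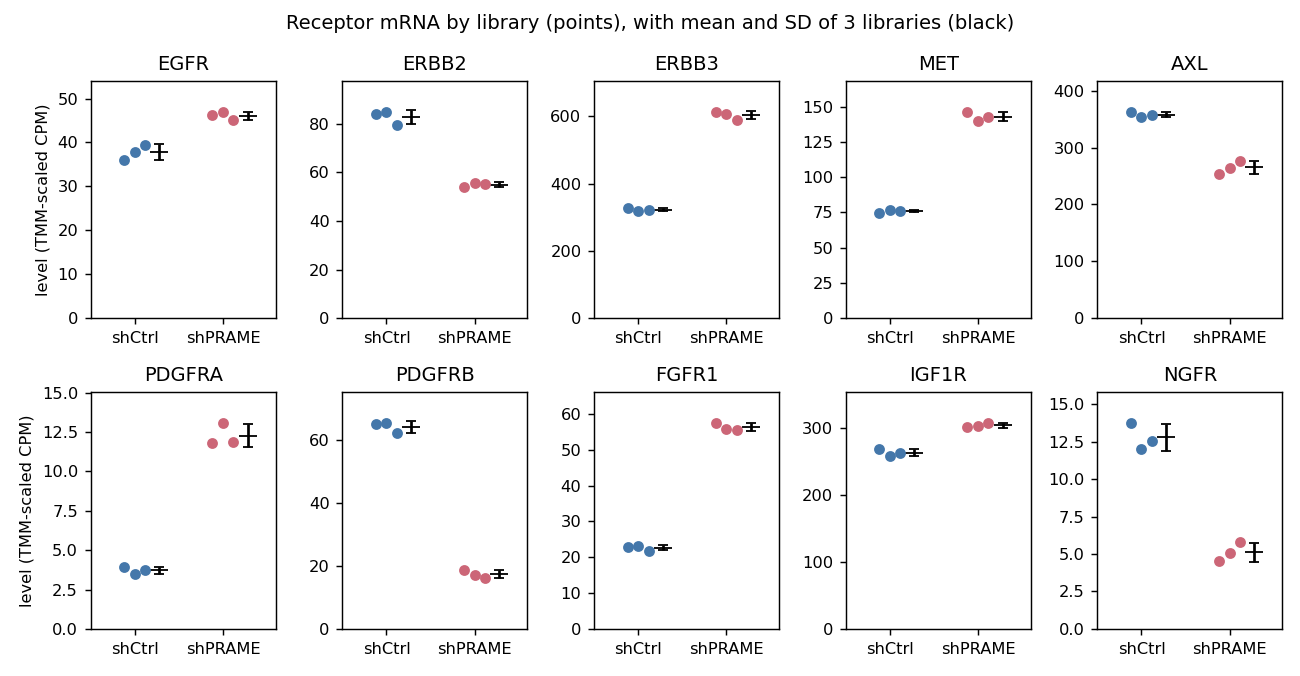
Level of each receptor in TMM-scaled CPM (linear axis from 0) in the 3 shCtrl libraries (blue) and the 3 shPRAME libraries (red), with the mean and SD of each group in black. The groups are apart in all 10 panels, most widely for PDGFRB (62.1 to 65.6 against 16.3 to 18.9 CPM) and PDGFRA (3.49 to 3.93 against 11.8 to 13.1 CPM), and least for IGF1R (258.1 to 268.6 against 301.2 to 308.2 CPM).

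The ERBB receptors moved apart from each other. ERBB3, which binds neuregulins and has a weak kinase that works through its partners, above all ERBB2, lies on chromosome 12 (56080108 to 56103505, GRCh38). It had 326.6, 318.7 and 320.8 CPM in shCtrl and 612.9, 606.7 and 589.2 CPM in shPRAME. All shPRAME libraries were thus well above all shCtrl libraries, 1.87-fold on average (log2 fold change 0.91, SE 0.023, edgeR adjusted p = 1.18e-15).

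ERBB2, the receptor without a known ligand of its own and the preferred partner of ERBB3, went the other way. It lies on chromosome 17 (39688094 to 39728658) and stood at 83.9, 84.8 and 79.5 CPM in shCtrl and at 53.8, 55.6 and 55.3 CPM in shPRAME. The shPRAME level was 66.3% of the control level (log2 fold change -0.59, SE 0.034, edgeR adjusted p = 4.58e-11). Counted per kilobase of transcript, ERBB3 exceeded ERBB2 by 3.24, 3.13 and 3.36 times in the shCtrl libraries and by 9.49, 9.09 and 8.88 times in the shPRAME libraries. This ratio is taken within a library and does not depend on the scaling between libraries.

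EGFR, the receptor for EGF and TGF-alpha (chromosome 7, 55019017 to 55211628), changed little. It had 35.9, 37.8 and 39.5 CPM in shCtrl and 46.2, 46.9 and 45.0 CPM in shPRAME, 1.22-fold higher (log2 fold change 0.29, SE 0.041, edgeR adjusted p = 6.38e-06). The groups did not overlap, but 59.85% of all tested genes had a larger change. Against a minimum fold of 1.2 EGFR was not called (edgeR glmTreat adjusted p = 0.197).

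Among 11 genes for ligands of EGFR and ERBB3, 7 passed the filter on low counts. Of these 2 rose, 3 fell and 2 did not pass (all tested genes: 37.7% higher, 36.8% lower). AREG, called higher, came into the test through shPRAME alone (9 counts over the shCtrl group and 110 over the shPRAME group). NRG4, called lower, came in through shCtrl alone (67 and 13 counts). TGFA, the gene of TGF-alpha, had 676.7, 679.9 and 686.3 CPM in shCtrl and 889.7, 865.9 and 878.1 CPM in shPRAME, a rise of 0.37 on the log2 scale (SE 0.022, edgeR adjusted p = 1.06e-10). HBEGF, heparin-binding EGF-like growth factor, fell to 34.6% of control, from 16.8 ± 1.097 to 5.82 ± 0.330 CPM (edgeR adjusted p = 1.07e-11). EGF itself fell from 4.42 ± 0.187 to 3.34 ± 0.137 CPM (edgeR adjusted p = 0.00374), a call lost against a minimum fold of 1.2 (edgeR glmTreat adjusted p = 0.0747). For ERBB3 the data hold little neuregulin mRNA. NRG2, which binds it weakly, had 3.29 ± 0.566 and 3.04 ± 0.181 CPM with overlapping libraries (edgeR adjusted p = 0.466), and NRG1, the main ligand, 0.788 ± 0.112 and 0.953 ± 0.136 CPM (edgeR adjusted p = 0.283), the latter named after its values were seen.

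MET and AXL moved in opposite directions. MET, the receptor for hepatocyte growth factor (chromosome 7, 116672196 to 116798377), had 74.9, 76.7 and 75.9 CPM in shCtrl and 146.2, 140.1 and 142.3 CPM in shPRAME. The shPRAME libraries were all close to 188.3% of the control mean (log2 fold change 0.91, SE 0.028, edgeR adjusted p = 1.39e-14). HGF, its ligand, had a low level, with 0.591, 1.25 and 0.778 CPM in shCtrl and 1.44, 0.870 and 1.07 CPM in shPRAME. The libraries overlapped and HGF did not pass (edgeR adjusted p = 0.243), although it did without shCtrl replicate 2, the highest control library (log2 fold change 0.71, edgeR adjusted p = 0.0343).

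AXL, the receptor for GAS6 and protein S (chromosome 19, 41219223 to 41261766), stood at 362.5, 353.1 and 357.0 CPM in shCtrl. In shPRAME it stood at 254.2, 264.5 and 277.2 CPM, 74.2% of control (log2 fold change -0.43, SE 0.028, edgeR adjusted p = 3.65e-10). Both of its ligand genes fell as well, where 36.8% of all tested genes were called lower. PROS1, which encodes protein S, fell from 36.5 ± 0.909 to 26.8 ± 0.638 CPM, or 73.5% of control (edgeR adjusted p = 5.34e-08). GAS6 fell from 1.98 ± 0.106 to 0.848 ± 0.175 CPM, with a fitted log2 difference of -1.22 (edgeR adjusted p = 1.61e-05). TYRO3, the other receptor of this small family with a sizeable level, fell from 140.3 ± 1.52 to 90.9 ± 2.23 CPM.

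The PDGF receptors showed the widest change and crossed in direction. Both are kinases of mesenchymal cells, which pair as homodimers or with each other. PDGFRA (chromosome 4, 54229293 to 54298245) had 3.93, 3.49 and 3.73 CPM in shCtrl and 11.8, 13.1 and 11.9 CPM in shPRAME, 3.3-fold higher (log2 fold change 1.72, SE 0.091, edgeR adjusted p = 1.77e-11). PDGFRB (chromosome 5, 150113839 to 150155845) had 65.1, 65.6 and 62.1 CPM in shCtrl and 18.9, 17.0 and 16.3 CPM in shPRAME. It fell to 27.1% of control (log2 fold change -1.89, SE 0.048, edgeR adjusted p = 9.67e-16), and 8.75% of all tested genes changed more. Per kilobase of transcript, PDGFRA was 0.0525, 0.0462 and 0.0522 of PDGFRB in the shCtrl libraries and 0.544, 0.669 and 0.632 of it in the shPRAME libraries. PDGFRB remained the higher of the pair in every library.

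All 4 ligand genes of these receptors passed, as did 74.4% of all tested genes, and they too split, 2 higher and 2 lower. PDGFB, whose product binds both receptors, had 7.72, 8.10 and 7.52 CPM in shCtrl and 0.288, 0.261 and 0.145 CPM in shPRAME, that is 758 counts over the control group and 23 over the other (log2 fold change -5.06, SE 0.179, edgeR adjusted p = 7.75e-14). PDGFA, a ligand of the alpha receptor, fell from 31.0 ± 0.824 to 9.87 ± 1.03 CPM. PDGFC, likewise a ligand of the alpha receptor, rose 4.27-fold from 4.67 ± 0.519 to 19.9 ± 0.807 CPM. PDGFD, a ligand of the beta receptor, rose from 3.41 ± 0.493 to 8.81 ± 0.613 CPM, so that ligands of each receptor went both ways (edgeR adjusted p of 5.99e-09 or smaller for these 3).

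The sequences upstream of the start sites are shown for PDGFRA and PDGFRB, the receptors with the largest rise and the largest fall, and for EGFR, whose window held the most motif matches. RefSeq windows (GRCh38.p14) were matched for 7 of the 10 receptors by symbol and by a start site at the upstream end of the annotated gene. Other entries of EGFR, AXL and PDGFRA were left out, and ERBB3, NGFR and FGFR1 had none that was used. The windows were trimmed to the 250 bases before the start site. Capitals mark matches, on either strand, to the motifs GCCNNNGGC (TFAP2), TGANTCA (AP-1, the AP-1 consensus with its middle base free), CACGTG (E-box) and GGAATG (TEAD), of which none overlapped another.
PDGFRA, chr4:54229043-54229292, plus strand: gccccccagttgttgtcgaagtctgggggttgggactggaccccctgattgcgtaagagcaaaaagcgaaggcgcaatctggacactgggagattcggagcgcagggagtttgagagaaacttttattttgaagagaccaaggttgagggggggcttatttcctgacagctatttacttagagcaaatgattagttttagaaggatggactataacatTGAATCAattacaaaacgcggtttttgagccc
PDGFRB, chr5:150155846-150156095, minus strand: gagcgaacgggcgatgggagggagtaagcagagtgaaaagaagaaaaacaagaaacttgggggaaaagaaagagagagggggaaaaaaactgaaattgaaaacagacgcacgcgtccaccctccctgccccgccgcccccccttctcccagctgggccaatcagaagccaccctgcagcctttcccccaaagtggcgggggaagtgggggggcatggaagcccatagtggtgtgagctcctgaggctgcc
EGFR, chr7:55018767-55019016, plus strand: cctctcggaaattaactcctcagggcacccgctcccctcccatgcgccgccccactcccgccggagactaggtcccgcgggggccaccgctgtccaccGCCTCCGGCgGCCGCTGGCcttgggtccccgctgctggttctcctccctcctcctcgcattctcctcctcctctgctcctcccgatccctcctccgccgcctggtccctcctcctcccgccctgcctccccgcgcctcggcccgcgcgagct
The PDGFRA window held 1 match to the AP-1 letters, the PDGFRB window none of the 4 motifs and the EGFR window 2 matches to the TFAP2 letters. Of 35116 RefSeq windows of the same length, 19.8% held the TFAP2 letters, 6.57% the AP-1 letters, 6.34% the E-box and 11.9% the TEAD letters. Guanine and cytosine made up 46.8% of the PDGFRA window, 58.4% of the PDGFRB window and 73.6% of the EGFR window, against a median of 58% over all windows. AXL and IGF1R each held 1 TFAP2 match, ERBB2 1 AP-1 match and MET none. A match is a run of letters and was not measured as a bound site.

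**Figure D2:**
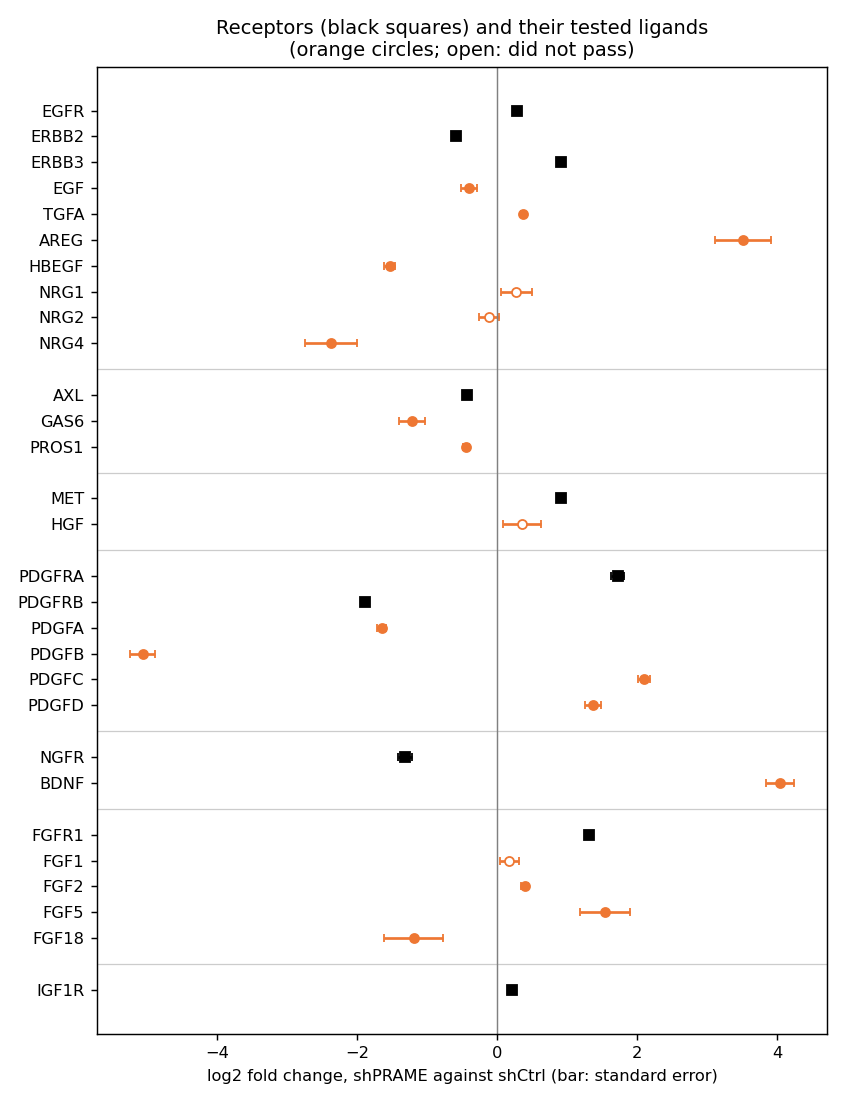
Log2 fold change of shPRAME against shCtrl with its standard error for the 10 receptors (black squares) and the tested genes of their ligands (orange circles), grouped by receptor, with open symbols for genes that did not pass. PDGFRA and PDGFRB lie on opposite sides of 0 (1.72 and -1.89), as do PDGFC (2.10) and PDGFB (-5.06), while AXL lies on the same side as both of its ligands.

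FGFR1 rose and IGF1R changed least. FGFR1, a receptor for fibroblast growth factors (chromosome 8, 38411143 to 38468635), had 23.0, 23.3 and 21.8 CPM in shCtrl and 57.5, 55.7 and 55.5 CPM in shPRAME, 2.48-fold higher (log2 fold change 1.31, SE 0.04, edgeR adjusted p = 1.15e-14). Of 18 ligand genes 4 passed the filter on low counts. FGF2, basic fibroblast growth factor, rose from 28.2 ± 2.18 to 37.04 ± 1.25 CPM (log2 fold change 0.39, edgeR adjusted p = 2.96e-06), and FGF1 had 2.17 ± 0.120 and 2.45 ± 0.0185 CPM (edgeR adjusted p = 0.253). FGF5 and FGF18, both around or under 1 CPM, were called higher and lower. FGF5 had 37 counts over the shCtrl group and 112 over the shPRAME group. FGF18 had 56 and 25, and its libraries overlapped between the groups. Each came into the test through the group where it was higher.

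IGF1R, the insulin-like growth factor receptor (chromosome 15, 98648539 to 98964530), had 268.6, 258.1 and 262.4 CPM in shCtrl and 301.2, 303.4 and 308.2 CPM in shPRAME. Although the groups did not overlap, the rise was 1.16-fold (log2 fold change 0.21, SE 0.024, edgeR adjusted p = 4.26e-07), and 69.5% of all tested genes changed more. It was not called against a minimum fold of 1.2 (edgeR glmTreat adjusted p = 1). Neither ligand gene was tested. IGF1 had 1 count over the 6 libraries and IGF2 at most 5 counts in a library, near the 3 counts that a count of 0 allows. Binding proteins of these ligands differed among themselves. IGFBP3 rose from 464.6 ± 4.57 to 522.4 ± 29.5 CPM (log2 fold change 0.17, less than IGF1R), and IGFBP6 did not pass (6.69 ± 0.368 and 6.15 ± 0.830 CPM). IGFBP5 rose from 18.0 ± 0.242 to 108.9 ± 5.17 CPM, IGFBP4 rose from 2.725 ± 0.190 to 11.5 ± 0.676 CPM and IGFBP2 fell from 188.5 ± 6.41 to 66.2 ± 0.276 CPM.

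NGFR, the marker of neural crest-like melanoma cells (chromosome 17, 49495293 to 49515008), fell. It had 13.78, 12.05 and 12.54 CPM in shCtrl and 4.54, 5.04 and 5.79 CPM in shPRAME, 40.1% of control (log2 fold change -1.32, SE 0.095, edgeR adjusted p = 1.17e-09). With 142 to 466 counts per library its spread was among the wider ones of the list. Among its ligand genes NTF3 and NTF4 had no count in any library. BDNF rose from 9, 6 and 8 counts to 112, 136 and 148 counts (0.236 ± 0.0459 to 3.94 ± 0.351 CPM, log2 fold change 4.04, edgeR adjusted p = 7.73e-12). SORCS2, a sorting receptor that can pair with NGFR, rose from 0.829 ± 0.105 to 12.7 ± 0.684 CPM. NTRK2 and NTRK3, neurotrophin receptors with a kinase, stayed under the filter, at 5 counts or fewer in each library.

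The order of the receptors changed when levels were set per kilobase of the longest annotated transcript, the scale on which genes can be compared. In shCtrl AXL led with 75.5 ± 1.001 CPM per kilobase (mean ± SD, n = 3), ahead of ERBB3 with 54.4 ± 0.694. IGF1R followed with 21.5 ± 0.432, ERBB2 with 16.8 ± 0.576, MET with 11.4 ± 0.135 and PDGFRB with 11.2 ± 0.324. EGFR, NGFR and FGFR1 stood between 3.65 and 3.84 on average, and PDGFRA at 0.565 ± 0.0340. Libraries of MET and PDGFRB overlapped, as did those of EGFR with NGFR and of NGFR with FGFR1, and all other neighbours in that order were apart.

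In shPRAME ERBB3 led with 101.9 ± 2.08 CPM per kilobase and AXL came next with 56.0 ± 2.44. IGF1R had 24.9 ± 0.294, MET 21.5 ± 0.463, ERBB2 11.1 ± 0.195 and FGFR1 9.05 ± 0.180. EGFR had 4.69 ± 0.0969, PDGFRB 3.04 ± 0.231, PDGFRA 1.86 ± 0.111 and NGFR 1.5 ± 0.184. No neighbours in this order overlapped. Of the summed level of the 10 receptors, ERBB3 made up 26.9% ± 0.0970 in shCtrl and 43.25% ± 0.932 in shPRAME, and AXL 37.2% ± 0.219 and 23.8% ± 1.004. That sum was 201.2 to 205.3 CPM per kilobase in shCtrl and 235.1 to 235.8 in shPRAME. These orders rest on annotated lengths, and on coding length ERBB2 stood below FGFR1 in shPRAME and PDGFRA, overlapping NGFR, came last. In shCtrl PDGFRB stood above MET on coding length, without overlap (19.4 ± 0.559 and 18.0 ± 0.212 CPM per kilobase).

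**Figure D3:**
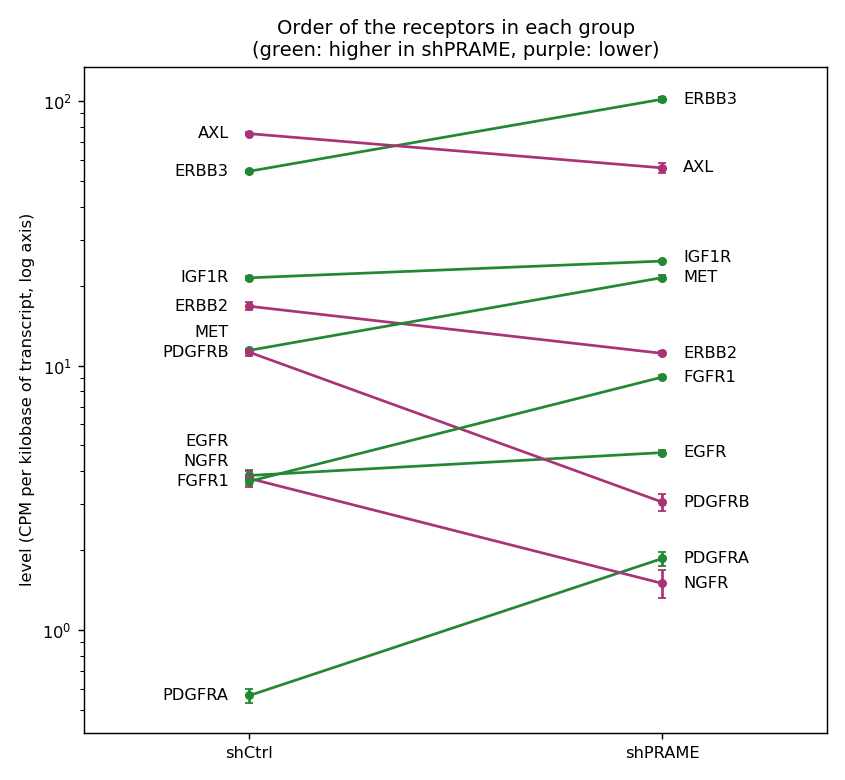
Mean level of each receptor in CPM per kilobase of transcript (log axis) in shCtrl and shPRAME, with bars for the SD of 3 libraries, green where shPRAME was higher and purple where it was lower. The lines of AXL and ERBB3 cross (75.5 and 54.4 in shCtrl against 56.0 and 101.9 in shPRAME), and PDGFRB drops from 11.2 to 3.04.

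The median log2 fold change of the 20 nearest tested genes had the sign of the receptor's own for 5 of the 10 receptors, and calls among these genes stand beside 37.7% higher and 36.8% lower over all tested genes. Around PDGFRA 17 of the 20 nearest tested genes (10 on each side) were higher and none lower. Their median log2 fold change was 0.56, against 1.72 for PDGFRA. The median over all tested genes of chromosome 4 was 0.45. Over the chromosomes of the other receptors that median ran from -0.27 (chromosome 5, PDGFRB) to 0.30 (chromosome 8, FGFR1). It was -0.17 on chromosome 7, where EGFR and MET rose, and 0.12 on chromosome 17, where ERBB2 and NGFR fell. Around PDGFRB 12 of 20 were lower and 3 higher (median -0.31, against -1.89), and around AXL 11 were lower and 4 higher (median -0.24, against -0.43). IGF1R rose in a region where 12 of 20 genes fell and 4 rose (median -0.58). For ERBB2, ERBB3, EGFR, MET, FGFR1 and NGFR the medians of the neighbours lay between -0.04 and 0.20, although the neighbours of MET were spread widely, with quartiles of -2.06 and 1.58. With the 5 nearest on each side the median was -1.26 for MET and -0.20 for FGFR1, both below 0, and 0.30 for NGFR. Each receptor's own log2 fold change kept its sign when the median of its neighbours was subtracted, with values from -1.57 for PDGFRB to 1.16 for PDGFRA. The part of such regional differences in the receptors' changes was not tested.

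**Figure D4:**
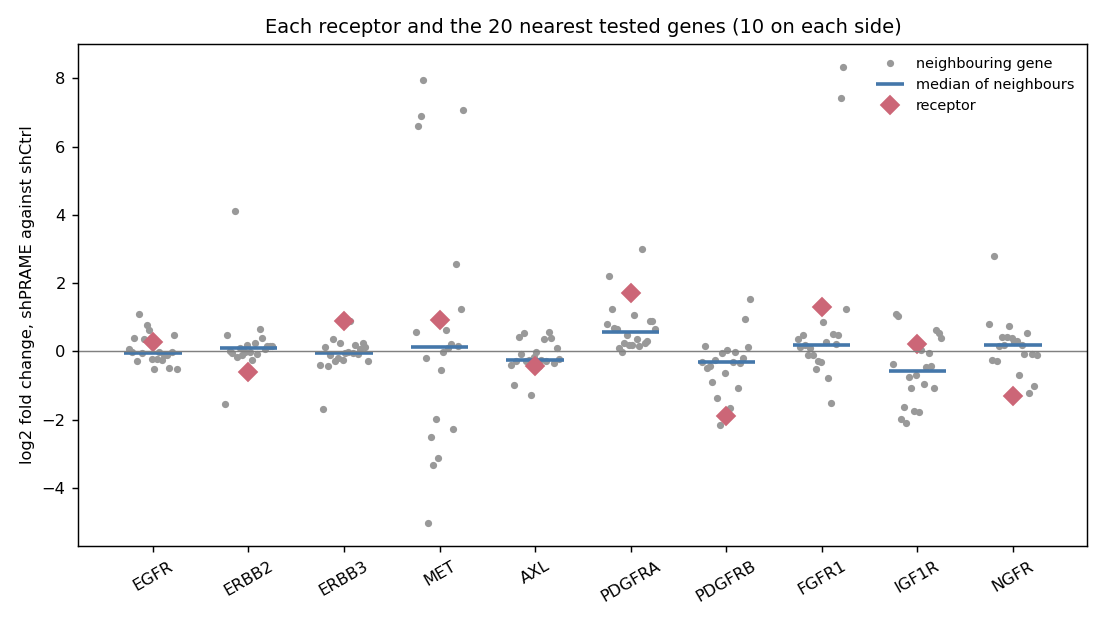
Log2 fold change of each receptor (red diamond) and of the 20 nearest tested genes (grey points, in their order along the chromosome), with their median as a blue line. The lowest PDGFRA neighbour lies at -0.01 and their median at 0.56, and those of IGF1R lie mostly below 0 (median -0.58). PDGFRB, NGFR, PDGFRA, FGFR1 and ERBB3 stand farthest from the medians of their neighbours.

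Of the genes annotated across the receptors, MIEN1, which overlaps ERBB2, had 614 to 669 counts in every library, 19.5 CPM in shCtrl and 19.4 in shPRAME and did not pass (edgeR adjusted p = 0.902). IRAIN, a noncoding RNA in IGF1R, fell from 1.65 to 1.02 CPM (edgeR adjusted p = 0.0023). EGFR-AS1, COMETT in MET and NGFR-AS1 had at most 4 counts in a library, as did the FGFR1 overlap LOC102723716, and the IGF1R overlaps LOC124903560 and LOC124903561 at most 11. The labels do not say whether the counting used strand, so reads of a receptor and of an overlapping gene may not have been told apart.

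Of 49 other receptor tyrosine kinases, 25 passed the filter on low counts, of which 17 rose, 5 fell and 3 did not pass (all tested genes: 37.7% higher, 36.8% lower), with a median log2 fold change of 0.58. TEK, ALK, ERBB4 and ROR1 came into the test through the shPRAME libraries alone, and MST1R through the shCtrl libraries, so these counts describe the genes that passed and are not evidence for the whole family. ERBB4, the remaining neuregulin receptor, had 3 counts over the shCtrl group and 200 over the shPRAME group (ratio 64.7, exact 95% counting interval 21.8 to 316.5). TEK, the angiopoietin receptor, had 3 and 281 counts (ratio 90.9, interval 30.8 to 443.6). ALK rose from 0.104 ± 0.0526 to 7.73 ± 0.579 CPM and ROR1, a WNT5A receptor, from 0.297 ± 0.113 to 10.2 ± 0.436 CPM. EPHA2 fell from 64.0 ± 3.16 to 23.2 ± 1.28 CPM. TYRO3, INSR and LMTK2 fell by less than 2-fold, to 64.8%, 73% and 74.9% of control.

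**Figure D5:**
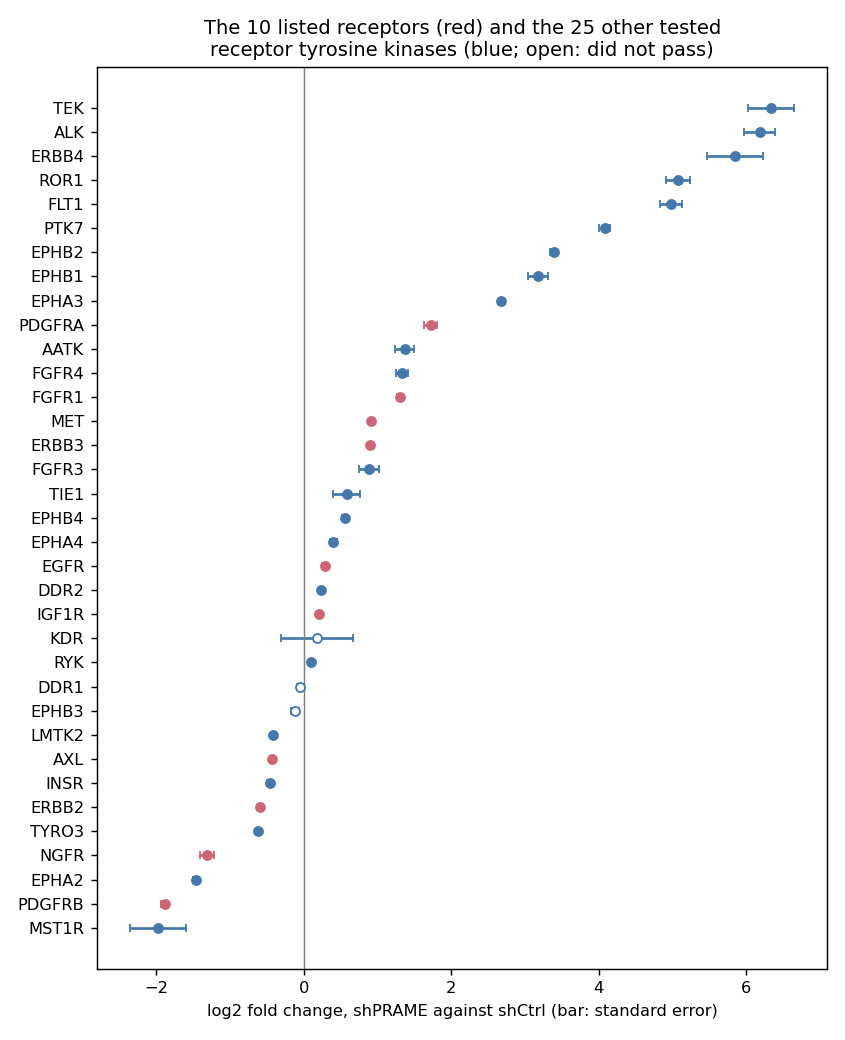
Log2 fold change of shPRAME against shCtrl with its standard error for the 10 listed receptors (red) and the 25 other receptor tyrosine kinases that passed the filter (blue), with open symbols for those that did not pass the test. The listed receptors span -1.89 to 1.72, and 9 of the other kinases, led by TEK at 6.34, lie above PDGFRA.

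Genes that act around the receptors were counted in the same way, beside 37.7% of all tested genes called higher and 36.8% called lower. Of 14 tested co-receptors and ligand-binding proteins 8 rose and 5 fell. GPC1, a heparan sulfate proteoglycan that presents fibroblast growth factors, fell from 118.3 ± 1.31 to 44.2 ± 0.841 CPM. Among 8 tested proteases and inhibitors that shed or process receptors and ligands 3 rose and 4 fell. TIMP3, the inhibitor of ADAM17, fell from 2890 ± 36.0 to 1572 ± 41.0 CPM while TIMP1 rose from 127.7 ± 1.99 to 234.9 ± 1.34 CPM. PLAT, tissue plasminogen activator, which can activate the PDGFC product, rose 2.47-fold, and FURIN, a proprotein convertase that cuts the MET and IGF1R precursors, fell to 58.1% of control.

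Of 19 tested adaptors 5 rose, 8 fell and 6 did not pass, with a median size of the log2 fold change of 0.21 where all genes had 0.38. SHC2, among those that fell, came into the test through shCtrl alone (38 counts over the shCtrl group and 15 over the shPRAME group). GAB1, the docking protein of MET, rose from 6.81 ± 0.652 to 11.5 ± 0.668 CPM, and GRB10 rose 1.28-fold. PLCG2 and GAB2 fell to 48.3% and 61.8% of control. Of 25 tested negative regulators 11 rose and 9 fell, shares close to the 37.7% and 36.8% over all tested genes. LRIG1, which promotes degradation of ERBB receptors and MET, fell from 12.7 ± 0.833 to 3.87 ± 0.141 CPM. PTPRJ, a phosphatase that acts on several of these receptors, fell from 159.7 ± 0.839 to 31.7 ± 0.978 CPM. SPRY1 and SPRY4, feedback inhibitors of the MAPK branch, rose 4.22-fold and 2.43-fold. The other listed genes of the SPRY, SPRED and DUSP families did not share rises of that size. SPRY2 rose 1.19-fold and DUSP4 fell to 83.7% of control, while DUSP5, DUSP6, SPRED1, SPRED2 and SPRED3 did not pass.

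Transcription factors linked to receptor expression in melanoma gave 8 higher and 12 lower among 25 tested, where all tested genes gave 37.7% and 36.8%. SOX10, whose loss is known to raise EGFR and PDGFRB in melanoma, did not pass (log2 fold change 0.05, SE 0.025, edgeR adjusted p = 0.076), though it was called slightly higher when libraries were scaled by their totals alone, without the filter on low counts or without shCtrl replicate 1. FOXD3, a neural crest factor, fell from 9.77 ± 0.771 to 1.24 ± 0.320 CPM. TFAP2B rose from 3, 2 and 5 counts to 4603, 5039 and 4967, while TFAP2C fell from 95.6 ± 2.23 to 41.5 ± 3.63 CPM. TEAD2 rose 2.57-fold, and MITF, the melanocyte factor, fell from 44.6 ± 1.38 to 37.6 ± 0.739 CPM, which was not called against a minimum fold of 1.2 (edgeR glmTreat adjusted p = 0.622).

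Markers of other cell types were read beside the receptors they share. Calls among them stand beside 37.7% of all tested genes called higher and 36.8% called lower. Of 9 fibroblast markers, which include PDGFRA and PDGFRB, 7 were tested, of which 5 rose and 2 fell, and the summed level without these receptors was 45.0 to 47.2 CPM in shCtrl and 59.8 to 64.5 CPM in shPRAME. COL1A1, COL1A2, COL3A1 and LUM, matrix genes that account for 4 of the 5 rises, had at most 5 counts in any shCtrl library and came into the test through shPRAME, so they could only be called higher. COL1A2 had no count in shCtrl and 718, 735 and 704 counts in shPRAME. LUM had 1 count over the shCtrl group and 992 over the shPRAME group, COL3A1 3 and 256, and COL1A1 11 and 49. FAP, a fibroblast activation marker expressed in both groups, fell from 46.1 ± 1.202 to 27.0 ± 0.770 CPM, and DCN and DPT were not tested. Of 8 pericyte and smooth muscle markers 3 rose and 3 fell. The sum without PDGFRB was 1003 to 1085 CPM in shCtrl and 1013 to 1043 in shPRAME. It was carried by CSPG4 and MCAM, which melanoma cells also express and which changed in opposite directions. CSPG4 fell from 812.9 ± 42.9 to 562 ± 10.4 CPM and MCAM rose from 231.2 ± 3.32 to 449.6 ± 6.21 CPM. Of 8 keratinocyte markers KRT5, KRT1 and TP63 had no count, and the sum without EGFR was 29.3 to 30.6 and 23.4 to 24.5 CPM, nearly all of it KRT10. For Schwann cells, whose markers include NGFR and ERBB3, 2 of 6 tested rose and 3 fell, with PMP22 down from 452.9 ± 2.70 to 288.1 ± 13.0 CPM. Of 6 endothelial markers CDH5 and CLDN5 had no count (TEK rose and KDR did not pass), and the sum was 0.292 to 0.946 and 3.01 to 3.85 CPM. The difference in this sum was carried by TEK (0.0309 and 2.79 CPM on average), which came into the test through shPRAME alone. KDR had 0.292 ± 0.198 and 0.334 ± 0.123 CPM. Of 6 leukocyte markers 3 were tested and called higher, of which PTPRC (0 and 92 counts over the groups) and LYZ came into the test through shPRAME alone. CD68 went from 43.9 ± 1.16 to 70.6 ± 0.766 CPM and LYZ reached 1.31 ± 0.155 CPM where shCtrl had 0.0706 ± 0.0437, whereas CD3E had no count. The part of such cells in the receptors' changes was not tested.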

How the data were processed

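Each library came with its own table of raw counts, whole numbers keyed by NCBI gene identifier, as deposited. GRCh38, hg38, STAR, Salmon and fastp appear in the submitters' processing notes without versions or roles, and no source used here gives the counting tool, annotation or strand setting. Repeated identifiers (34 rows of 40929) were summed, and 40789 of 40895 identifiers matched RefSeq GRCh38.p14, which gave symbols and coordinates. The others held at most 0.00929% of a library and stayed in the totals. Levels per kilobase used the longest GENCODE transcript.

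The test was run in edgeR 4.0.16 under R 4.3.3 (filterByExpr, TMM, glmQLFTest, 2-sided, group as the only term) across all genes, with Benjamini-Hochberg adjustment over 15954 tested genes. Passing means an adjusted p below 0.05. The standard error is the log2 fold change over the root of F. Genes with few counts in 1 group, such as BDNF, PDGFB and TFAP2B, came into the test through the other group. The test was checked on simulated data. Alternatives were RLE factors, library totals, no filter, a stricter filter (1 CPM in 3 libraries), DESeq2 1.42.0, limma-voom 3.58.1, a minimum fold of 1.2, the replicate block and leaving out each library. Intervals and floors cover counting error only.

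The receptors and all gene lists were chosen with earlier results of these data known. Named genes are the receptors, PRAME, tested ligands of at least 1 CPM, up to 4 other kinases and up to 2 genes of each other list per direction with the largest changes among those that passed at 1 CPM or more, the 2 highest markers per list and genes overlapping a receptor. S100B, IGFBP3, IGFBP4, IGFBP6, MST1R, PTPRC, the matrix genes, TYR, MLANA, NRG1, AREG, NRG4, FGF5, FGF18, SHC2, SPRY2 and the DUSP and SPRED genes were named after their values were seen. So were the ligands and partners with no or few counts and the markers without a count. Some listed genes are not reported here.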

Additional observations from a re-analysis of the deposited data

How the results depend on the processing

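Across 14 alternative fits the 10 receptors kept their direction, and 138 of 140 values kept their side of the threshold. The exceptions were EGFR (adjusted p = 0.197) and IGF1R (adjusted p = 1) against a minimum fold of 1.2, a stricter question. By that test 7726 genes passed, 3921 higher and 3805 lower, where 11875 passed against no change, and EGF (adjusted p = 0.0747), MITF (0.622) and KRT10 (0.392) lost their calls. Among the log2 fold changes of the other named genes, NRG2 reversed without shCtrl replicate 1 (leaving out each library gave -0.240 to 0.003) and KDR without shCtrl replicate 3 (-0.263 to 0.539), neither called. Scaling by library totals alone raised the share of higher calls from 50.59% to 55.44%. No pairing of the libraries by replicate number was seen: same-numbered libraries had correlations of deviations of -0.0596, -0.115 and -0.101, and no library correlated best with its own number. Whether the libraries were paired is not stated in the labels, and such weak correlations do not settle it. With the replicate block 11603 genes passed, and all 10 receptors kept their calls and directions. With coding length 3 receptors stood higher in the order in shPRAME than in shCtrl and with transcript length 4. With 5 neighbours on each side 4 receptors shared the sign of their neighbours' median and with 10 on each side 5. Receptors with few counts, PDGFRA and NGFR, had the largest standard errors.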

Other observations

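Several further receptor tyrosine kinases changed more than any of the 10 receptors. They are given here as values and were chosen after these were seen. EPHA3, an ephrin receptor of mesenchymal and neural crest-derived cells, had 74.4, 76.9 and 77.3 CPM in shCtrl and 502.4, 487.1 and 473.4 CPM in shPRAME, 6.4-fold higher (edgeR adjusted p = 1.72e-20). EPHB2, another ephrin receptor, rose from 9.42 ± 0.138 to 98.8 ± 5.25 CPM (mean ± SD, n = 3 each). PTK7, a pseudokinase of planar cell polarity, rose from 2.43 ± 0.179 to 41.3 ± 1.79 CPM, and FLT1, a VEGF receptor, from 0.640 ± 0.246 to 20.5 ± 2.05 CPM. For each of these 4 genes the libraries of the groups did not overlap, as for 76.5% of all tested genes.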
